A study of Mus musculus with 16 samples.

Results

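The genes studied here are 32 mouse genes of bile acid synthesis, bile acid conjugation and transport across the hepatocyte membrane, together with the bile acid receptor and its target repressor. They were chosen by name and known role, with earlier results of these data in view. For each gene the row of the array with a single gene symbol and the highest mean over all 16 arrays was used. All 32 genes had such a row, each gene had 1, and they stand among 19938 genes and 35557 rows in all. RNA of the liver was hybridised to Affymetrix Mouse Gene 1.0 ST arrays, which report 1 log2 intensity per transcript. The groups were 7 samples from Pdgf-c transgenic mice and 9 from wildtype mice, and both groups share the C57BL/6 background and received no agent that the labels name. Pdgf-c is platelet-derived growth factor C, and the series asked about the part of liver stromal cells in tumour formation. The promoter of the transgene, the age of the mice and whether each sample is a separate animal are not given in the sources used here. The p-values therefore speak of the variation among these arrays, which may be technical in part.

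Bile acids are made from cholesterol in hepatocytes. Cytochrome P450 enzymes hydroxylate the sterol, peroxisomal enzymes shorten its side chain, and the acid is then coupled to taurine or glycine. Transporters of the sinusoidal membrane take bile acids and other organic anions up from blood, pumps of the canalicular membrane export them into bile, and further pumps of the basolateral membrane return them to blood. Bile acids activate the nuclear receptor FXR (Nr1h4), which induces the repressor SHP (Nr0b2) and the bile salt export pump (Abcb11) and lowers transcription of Cyp7a1.

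The labels call the samples stromal cells, whereas the extraction protocol describes total hepatic RNA, and the hepatocyte gene Alb averaged 13.5 in the transgenic and 13.6 in the wildtype group. Column medians lay between 5.20 and 5.36, and Pearson's r over all rows was at least 0.976 between any pair of arrays. The first principal component, with 26.4% of the variance, separated the groups; on the second (11.5%) wildtype array 9 lay at -54.4 and transgenic array 1 at 28.8, with the other arrays between -25.0 and 17.6. Markers of other cell types moved with the genotype: 12 of 12 stellate cell and fibroblast genes were higher (Lum by 3.56, Pdgfra by 3.17 and Vim by 2.12), 8 of 10 sinusoidal endothelial genes were lower (Clec4g by -2.27, Dnase1l3 by -1.88 and F8 by -1.29), and of 12 macrophage genes 5 were higher and 6 lower (Cd5l by -2.83, Cd163 by -2.76 and Clec4f by -2.70, but Cx3cr1 by 2.20 and Lyz2 by 1.73, and Ccr2 4.01-fold higher, the last 3 named after their values were seen). The stellate list averaged 8.54 to 8.80 over the transgenic arrays and 6.54 to 7.13 over the wildtype arrays. Of 15 hepatocyte markers, 8 were lower and 1 higher (Otc by -0.51, F9 by -0.33 and Arg1 by -0.29), with a list average of 12.3 to 12.5 on the transgenic arrays and 12.5 to 12.6 on the wildtype arrays, without overlap. Of 10 cholangiocyte markers Tspan8 alone passed the test (0.37), and the list averaged 5.25 to 5.34 and 5.08 to 5.28. By the test named in the next paragraph, 11.1% of all genes were lower and 12.1% higher. Of genes with a mean of at least 9, 38.1% were lower and 12.1% higher, and 17.3% lay wholly below. The last is a share of single genes, not of list averages. The median wildtype level of the hepatocyte markers was 12.9.

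Of the 32 bile acid genes, 15 fell in the transgenic livers, 1 rose and 16 did not pass the test. The test was limma's moderated comparison over all 35557 rows with Benjamini-Hochberg adjustment and a threshold of 0.05. By this rule 8.26% of all rows were lower and 10.6% higher, and among genes with 1 symbol the shares were 11.1% and 12.1%. The shares in this paragraph are also the background of the counts by role below. Bright genes were lower more often. Of the 1941 genes with a mean of at least 9, the range that holds 25 of the 32 genes, 38.1% were lower and 12.1% higher, and 14 of those 25 (56%) fell. The median difference, transgenic minus wildtype, was -0.22 over the 32 genes, -0.12 over the hepatocyte markers, -0.10 over the genes with a mean of at least 9 and -0.03 over all rows. Apart from Slc22a7, which fell 2.80-fold, the falls were small, from 1.12-fold to 1.40-fold. In whole-liver RNA, fewer hepatocytes and less RNA per hepatocyte cannot be told apart. With each array centred on the median of its hepatocyte markers, 6 of the 15 remained called lower (Slc22a7, Abcb11, Acox2, Amacr, Slc27a5 and Slco2b1), 2 genes were called higher (Slco1a4 and Atp8b1), and the median difference was -0.15. The marker median used for this centring differed by -0.07 between the groups, so each difference moved by that amount alone. These markers are bright, with a median wildtype level of 12.9. Without transgenic array 1 and wildtype array 9 together, 12 genes were lower and 4 higher.

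**Figure D1:**
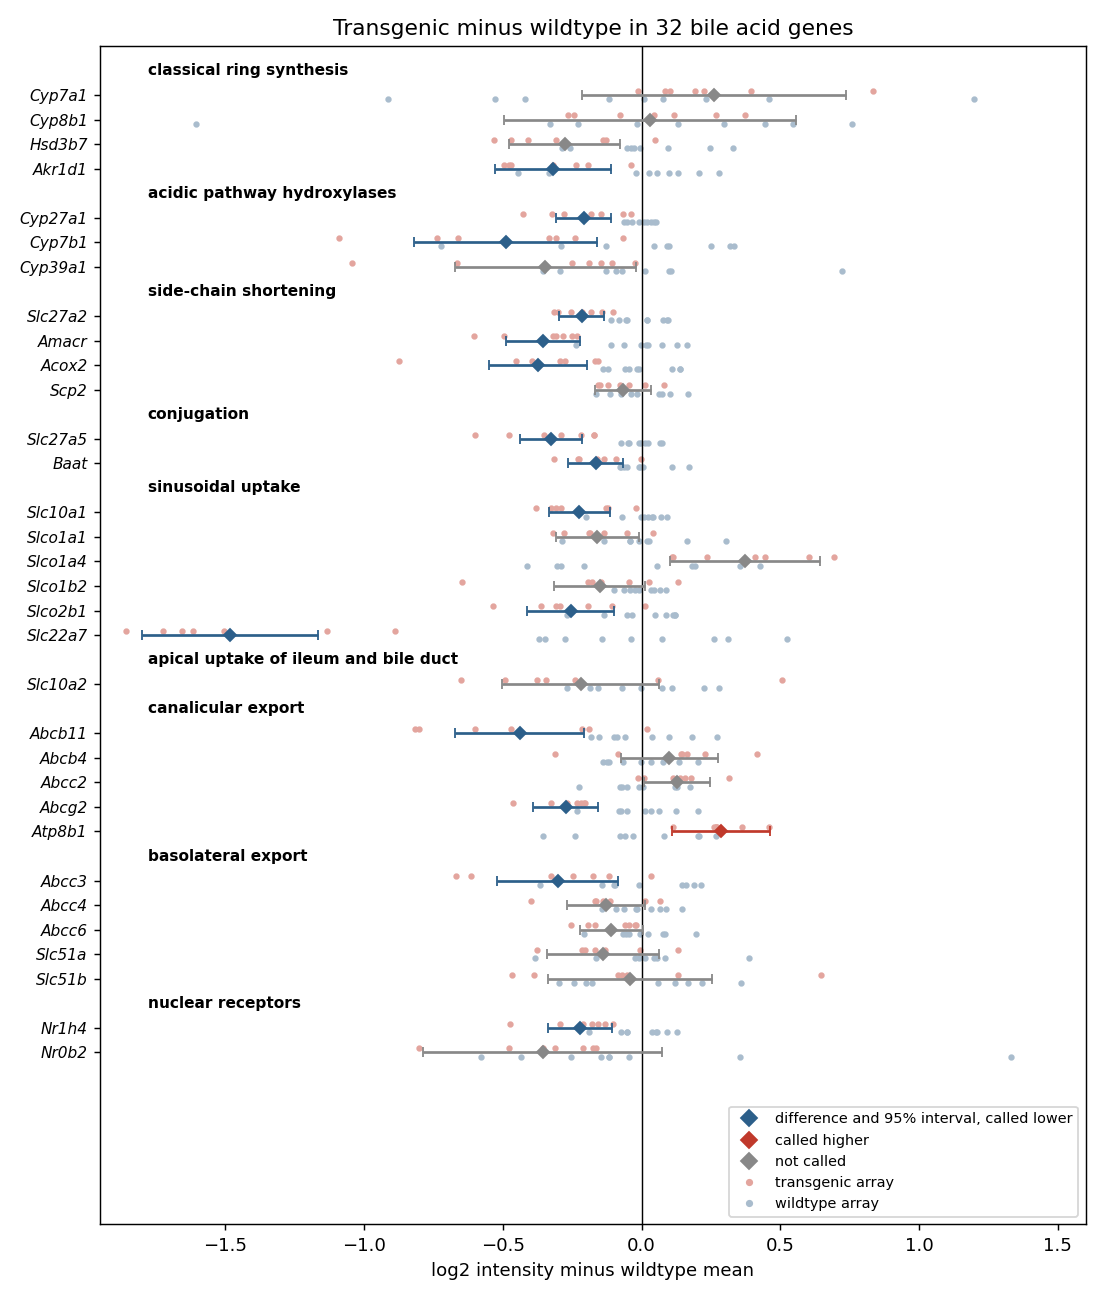
Log2 difference, transgenic minus wildtype, with its 95% interval (diamonds and bars) for 32 bile acid genes grouped by role, over the single arrays (dots: 7 transgenic, 9 wildtype) as log2 intensity minus the wildtype mean. Slc22a7 lies apart at -1.48, and most other differences lie between -0.49 and 0 with overlapping arrays.

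**Figure D2:**
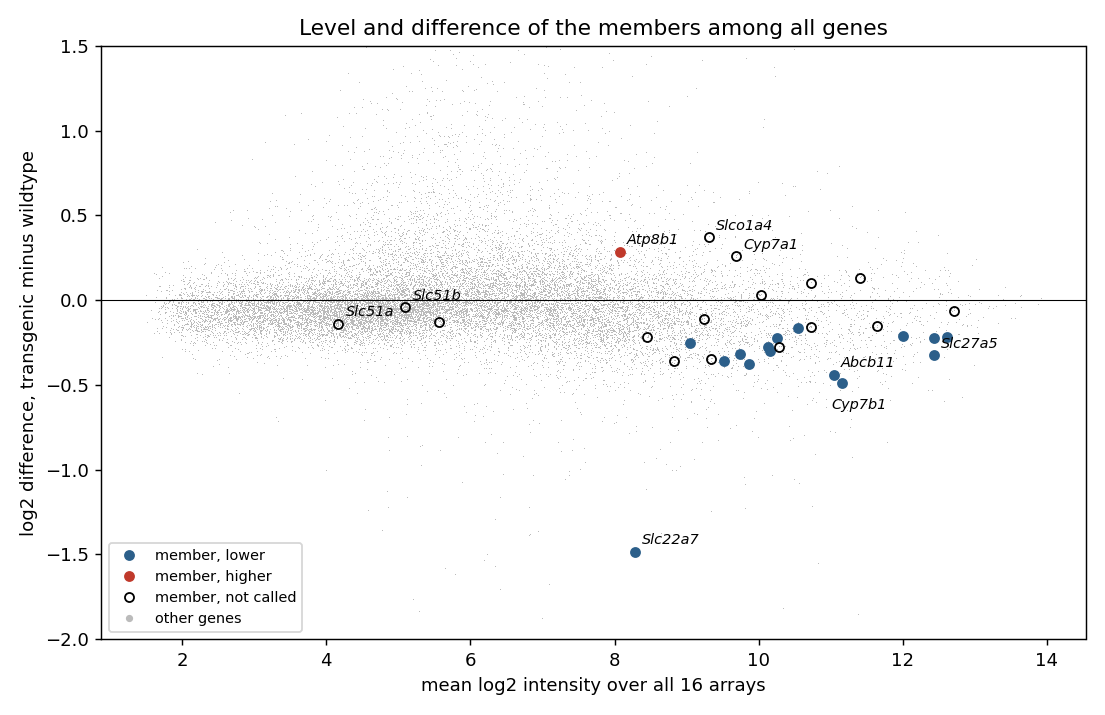
Mean log2 intensity over all 16 arrays (horizontal) against the log2 difference, transgenic minus wildtype (vertical), for 19938 genes (grey dots) and the 32 bile acid genes (circles, filled where called); 128 genes lie outside the vertical range. Most of the 32 genes lie among the brighter genes of the array, where called genes are more often lower than higher.

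Of 4 genes grouped here under the classical pathway, which starts with hydroxylation of cholesterol at the ring, 1 fell. Each gene was counted under 1 role only, also where its enzyme can serve both pathways. The counts by role are therefore not a comparison of the pathways. Cyp7a1, the rate-limiting 7-alpha-hydroxylase, read 9.56 at the lowest, 9.77 at the median and 10.41 at the highest over the transgenic arrays, and 8.66, 9.59 and 10.78 over the wildtype arrays. The wildtype range enclosed the transgenic range. The difference was 0.26 ± 0.226 (SE, 7 against 9 arrays; limma adjusted p = 0.489), with a 95% interval from -0.22 to 0.74. It lay between 0.15 without wildtype array 9 and 0.41 without wildtype array 5. Cyp8b1, the sterol 12-alpha-hydroxylase that sets the share of cholic acid, likewise ranged from 9.76 to 10.40 in the transgenic group and from 8.42 to 10.78 in the wildtype group, and differed by 0.03 ± 0.25 (adjusted p = 0.953; 95% interval -0.50 to 0.56). Its difference turned to -0.17 without wildtype array 1, the low value of its group. Both intervals reach to either side of 0. Akr1d1, the reductase that saturates the ring, fell 1.25-fold (-0.32 ± 0.0991, adjusted p = 0.0304). All 7 transgenic arrays lay under the wildtype mean of 9.88, and 3 of them under the lowest wildtype array. Akr1d1 lost its call on omitting any of transgenic arrays 1, 3 and 4 and wildtype arrays 3, 4 and 5, with adjusted p-values from 0.0538 to 0.0691. Akr1d1 was also not called with the replicate number as a block (limma adjusted p = 0.0558) or with arrays centred on hepatocyte markers (0.0757). Hsd3b7, the dehydrogenase of the step before it, stood at -0.28 ± 0.0954 and missed the threshold (adjusted p = 0.0513). It passed in 10 of 28 alternative analyses, among them those that omit transgenic array 5 (0.0487), 6 (0.0473) or 7 (0.0183), and likewise wildtype array 2 (0.0269) or 3 (0.031).

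Of 3 hydroxylase genes grouped here under the acidic pathway, which starts at the side chain, 2 fell. Cyp27a1, the mitochondrial sterol 27-hydroxylase, read 11.67 at the lowest, 11.91 at the median and 12.06 at the highest in the transgenic group, against 12.03, 12.11 and 12.15 in the wildtype group. The wildtype arrays were tight, and 6 of the 7 transgenic arrays lay below all of them. The fall was 1.16-fold (-0.21 ± 0.047, adjusted p = 0.0036). Cyp7b1, the oxysterol 7-alpha-hydroxylase that follows it, fell 1.40-fold (-0.49 ± 0.157, adjusted p = 0.035), from a wildtype median of 11.47 (10.65 to 11.71) to a transgenic median of 11.04 (10.29 to 11.31). Its arrays overlapped. Omitting any of transgenic arrays 2, 6 and 7 and wildtype arrays 1, 2, 5, 6, 8 and 9 ended the call of Cyp7b1, with adjusted p-values from 0.0518 to 0.079. Cyp39a1, another oxysterol 7-alpha-hydroxylase, stood at -0.35 ± 0.155 (adjusted p = 0.14).

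Side-chain shortening and conjugation had 5 of 6 genes lower. All 6 had a mean of at least 9, the range in which 38.1% of genes were lower. Slc27a2, an acyl-CoA synthetase that activates the bile acid precursors, fell 1.16-fold (-0.22 ± 0.0386, adjusted p = 0.000486), and Amacr, the racemase that turns them to the form the oxidase accepts, fell 1.28-fold (-0.36 ± 0.0633, adjusted p = 0.000466). In both genes 6 of 7 transgenic arrays lay below all wildtype arrays. Acox2, the peroxisomal oxidase of branched-chain acyl-CoAs, read 9.15, 9.73 and 9.87 in the transgenic group and 9.89, 10.01 and 10.17 in the wildtype group (lowest, median and highest). The groups did not overlap, and transgenic array 4 was the low value. Slc27a5 and Slc22a7 were separated too, so that 3 of the 32 genes lay wholly below, against 2.38% of all rows and 17.3% of genes with a mean of at least 9. Acox2 fell 1.30-fold (-0.37 ± 0.084, adjusted p = 0.00354). Scp2, whose longer product is the thiolase of the last step, differed by -0.07 ± 0.0477 (adjusted p = 0.399; 95% interval -0.17 to 0.04).

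Slc27a5, the bile acid-CoA ligase that prepares the acid for conjugation, read 11.97, 12.28 and 12.41 in the transgenic group and 12.50, 12.58 and 12.65 in the wildtype group. All transgenic arrays lay below all wildtype arrays. The fall was 1.25-fold (-0.33 ± 0.0536, adjusted p = 0.000222) and kept its call in all 28 alternatives, as did those of Amacr, Acox2, Abcb11 and Slc22a7. Baat, the transferase that joins the acid to its amino acid, fell 1.12-fold (-0.17 ± 0.047, adjusted p = 0.0179) and lay below all wildtype arrays on 6 of 7 transgenic arrays. The call of Baat was lost under quantile normalization (-0.13, limma adjusted p = 0.0533) and with arrays centred on hepatocyte markers (-0.10, limma adjusted p = 0.325).

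**Figure D3:**
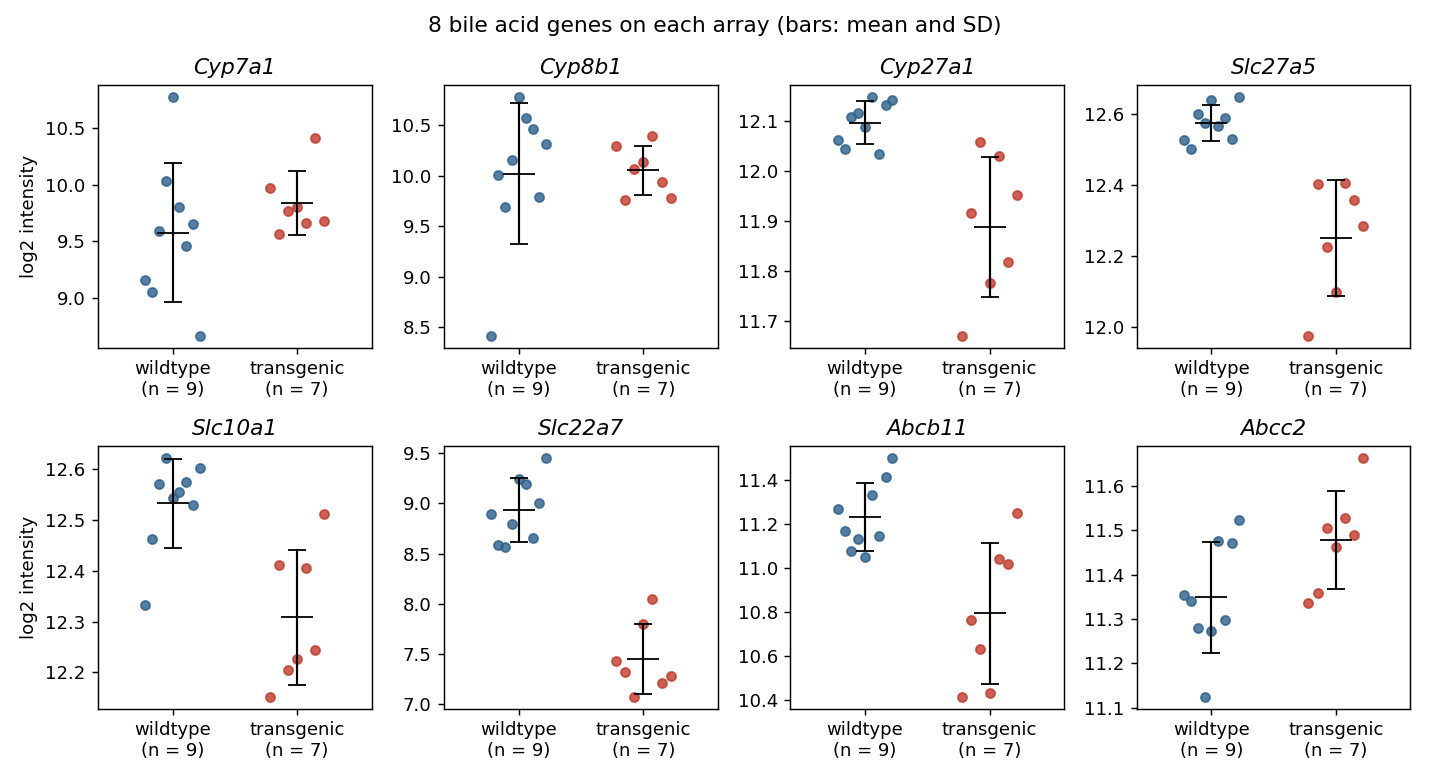
Log2 intensity of 8 bile acid genes on each of 9 wildtype and 7 transgenic arrays (dots), with the mean and SD of each group (bars); the vertical axes differ and do not start at 0. Slc27a5 and Slc22a7 show groups without overlap, whereas Cyp7a1 and Cyp8b1 spread more widely in the wildtype group (SD 0.613 and 0.7) than in the transgenic group (SD 0.284 and 0.244).

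Of 6 transporters of sinusoidal uptake, 3 fell. Slc22a7, the organic anion transporter OAT2, read 7.07, 7.32 and 8.04 over the transgenic arrays and 8.56, 8.89 and 9.46 over the wildtype arrays. The groups were separated by more than the SD of either (0.347 and 0.316). Its fall was -1.48 ± 0.151 (adjusted p = 1.13e-06), and between -1.58 and -1.40 in all alternatives. Slc10a1, the sodium-dependent bile salt transporter NTCP, fell 1.17-fold (-0.22 ± 0.052, adjusted p = 0.00443), from 12.33, 12.56 and 12.62 in the wildtype group to 12.15, 12.24 and 12.51. Its groups overlapped, and 4 of 7 transgenic arrays lay under the lowest wildtype array. Slco2b1, an organic anion transporting polypeptide of broad distribution, fell 1.19-fold (-0.25 ± 0.0744, adjusted p = 0.0211; 0.0511 without transgenic array 4). With the replicate number as a block Slco2b1 was not called (limma adjusted p = 0.1147).

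The 3 other organic anion transporting polypeptides did not pass. Slco1b2, the main one of mouse hepatocytes for unconjugated bile acids, stood at -0.15 ± 0.0783 (adjusted p = 0.212), with transgenic array 1 at 11.07 and the other transgenic arrays from 11.52; without array 1 the difference was -0.07. Slco1a1 stood at -0.16 ± 0.0711 (adjusted p = 0.138; 0.0448 without wildtype array 4). Slco1a4 pointed the other way: it read 9.25, 9.55 and 9.84 in the transgenic group and 8.73, 9.20 and 9.57 in the wildtype group, with all 7 transgenic arrays above the wildtype mean. Its difference of 0.37 ± 0.128 lay at the threshold (adjusted p = 0.0505). It was called higher in 11 of 28 alternatives, among them those that omit transgenic array 1 (0.0361) or 3 (0.0409), and likewise wildtype array 1 (0.0221), 3 (0.0297) or 7 (0.0488). Slco1a1 and Slco1a4 are related in sequence, and whether their probes read each other's transcript was not tested. Slc10a2, the apical sodium-dependent transporter of ileum and bile duct, stood at -0.22 ± 0.134 (adjusted p = 0.299; 0.0271 without transgenic array 6, the highest array at 9.05).

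Of 5 canalicular genes 2 fell and 1 rose. Abcb11, the bile salt export pump, read 10.41, 10.76 and 11.25 in the transgenic group and 11.05, 11.17 and 11.50 in the wildtype group. It was lower on 6 of 7 transgenic arrays than on any wildtype array, and transgenic array 7 lay inside the wildtype range. The fall was 1.36-fold (-0.44 ± 0.111, adjusted p = 0.00826). Abcg2, the breast cancer resistance protein that exports sulphated and other conjugates, fell 1.21-fold (-0.27 ± 0.0562, adjusted p = 0.00172). Abcc2 (MRP2), which exports bilirubin glucuronides and divalent bile salts, stood at 0.13 ± 0.0565 (adjusted p = 0.132), with 6 of 7 transgenic arrays above the wildtype mean. Abcb4, the phosphatidylcholine floppase, stood at 0.10 ± 0.0832 (adjusted p = 0.469). Atp8b1, the flippase that protects the canalicular membrane from bile salts, was the gene that rose. It read 8.06, 8.21 and 8.40 in the transgenic and 7.59, 7.91 and 8.21 in the wildtype group, and 5 of 7 transgenic arrays lay above all wildtype arrays. The rise was 1.22-fold (0.29 ± 0.0834, adjusted p = 0.0206); with arrays centred on their medians it was 0.24 and not called (adjusted p = 0.0717). Without transgenic array 1 and wildtype array 9 together, Abcb4 (adjusted p = 0.0461) and Abcc2 (0.0333) were called higher too.

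Among basolateral exporters 1 of 5 genes fell. Abcc3 (MRP3), which returns conjugates to blood, fell 1.23-fold (-0.30 ± 0.103, adjusted p = 0.0492), with medians of 10.04 in the transgenic and 10.28 in the wildtype group and overlapping arrays. It lost its call in 19 of 28 alternatives. Among these were the fits that omit any of transgenic arrays 1, 2, 3, 4 and 5 and wildtype arrays 1, 2, 3, 6, 7, 8 and 9, with adjusted p-values from 0.0508 to 0.114. Abcc4 (MRP4), which cotransports bile salts with glutathione, differed by -0.13 ± 0.0668 (adjusted p = 0.209) and Abcc6 by -0.11 ± 0.0537 (adjusted p = 0.185). The subunits of the organic solute transporter were dim: Slc51a averaged 4.09 and 4.23 and Slc51b 5.08 and 5.12 in the transgenic and wildtype groups, below the median of the table (5.26). They differed by -0.14 ± 0.0959 and -0.04 ± 0.14 (adjusted p = 0.37 and 0.887). The 95% intervals of Abcc4, Slc51a and Slc51b reached from -0.34 at the lowest to 0.26 at the highest.

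To set genes side by side within arrays, the log2 difference between both genes of a pair was taken on each array for 6 pairs, which cancels any factor that scales a whole array. The pairs were chosen after their values were seen, so the values are a description and carry no test. Abcb11 minus Abcc2 was -0.69 ± 0.252 in the transgenic and -0.12 ± 0.0812 in the wildtype group (SD, n = 7 and 9), and the groups did not overlap. Abcb11 minus Abcb4 was 0.01 ± 0.287 and 0.55 ± 0.0849, with a difference of -0.54 between the groups. Among uptake transporters, the group means of Slc22a7 minus Slc10a1 differed by -1.26 without overlap, and those of Slco1a1 minus Slco1a4 by -0.53. Slc27a5 minus Baat differed by -0.16 and Cyp7b1 minus Cyp7a1 by -0.75. In each pair all 7 transgenic arrays lay under the wildtype mean.

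**Figure D4:**
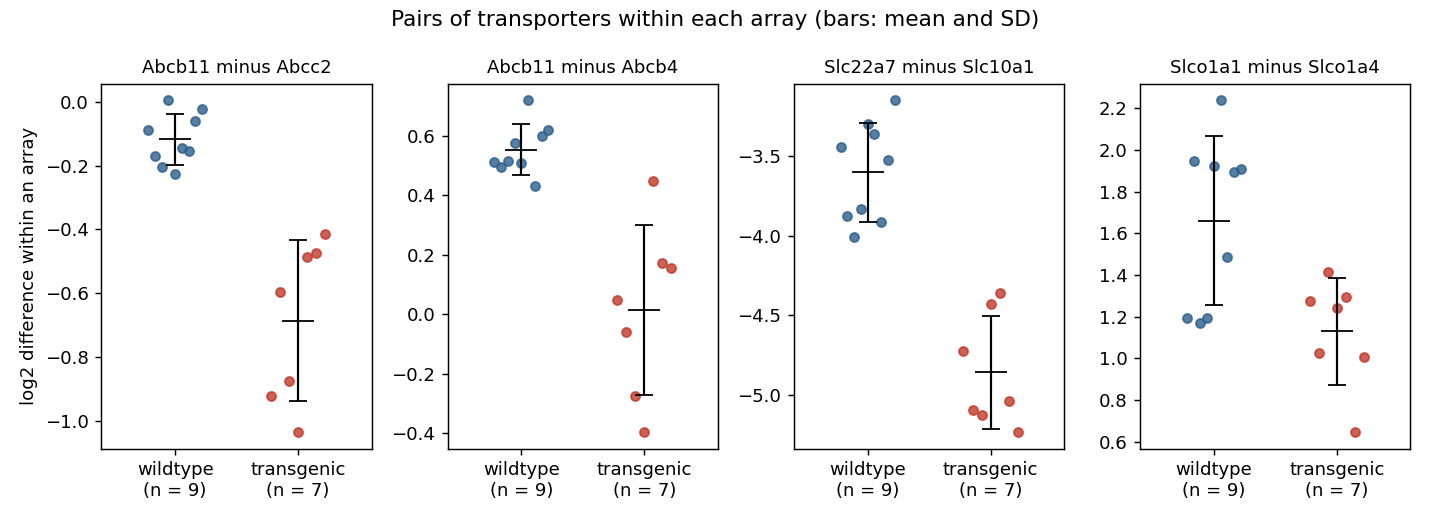
Log2 difference between both transporters of a pair on each of 9 wildtype and 7 transgenic arrays (dots), with mean and SD (bars); the vertical axes differ and do not start at 0. For Abcb11 minus Abcc2 and Slc22a7 minus Slc10a1 the transgenic arrays lie below all wildtype arrays.

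Nr1h4, which encodes the bile acid receptor FXR, fell 1.17-fold (-0.22 ± 0.055, adjusted p = 0.00742), from 10.16, 10.38 and 10.47 in the wildtype group to 9.87, 10.17 and 10.24. Nr0b2, which encodes its target SHP, read 8.19, 8.68 and 8.82 in the transgenic group and 8.41, 8.87 and 10.32 in the wildtype group. All 7 transgenic arrays lay under the wildtype mean, which wildtype array 7 raised. The difference was -0.36 ± 0.205 (adjusted p = 0.266; 95% interval -0.79 to 0.07), and it was -0.19 without that array.

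Whether target and repressor levels varied together was examined within each group, over 4 pairs of genes and 8 relations in all. Among the transgenic arrays Nr0b2 and Abcb11 had Pearson's r = -0.613 (exact permutation p = 0.134) and Spearman's rho = -0.75 (exact permutation p = 0.0663; adjusted p = 0.536 and 0.53), and r was -0.72 without arrays 5 and 6. Nr0b2 and Cyp7a1 had r = -0.691 there (exact permutation p = 0.111, adjusted p = 0.536) but rho = -0.107 (p = 0.84 by exact permutation), and r = 0.251 without arrays 5 and 6, so that this relation rested on those arrays. Cyp7a1 and Cyp8b1 had r = 0.418 and rho = 0.417 over the 9 wildtype arrays (exact permutation p = 0.256 and 0.27; r = 0.503 without arrays 5 and 9). The other 5 relations had r between -0.101 and 0.132, and no relation passed the threshold (exact permutation, adjusted p at least 0.53).

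The start regions of these genes were searched for letters that nuclear receptors are known to bind, in windows from 250 bases before to 50 after a gene's start (RefSeq, GRCm38.p6). Windows were matched by symbol for 22 of the 32 genes. The 6 letters AGGTCA, the core that many nuclear receptors recognise, were found on either strand in 12 of the 22, against 18.1% of all 27025 genes with a window and 20% of those with an array mean of at least 9. They were in 6 of 9 genes that fell and in 6 of 13 that did not. Other genes that fell, Slc22a7 and Slc27a5 among them, had no matched window and are not in these counts. Longer forms with a single base between were searched too: AGGTCA followed by its reverse complement (an inverted repeat, as FXR binds) and AGGTCA followed by itself (a direct repeat), each of which contains the 6 letters. Only exact letters were counted, and both forms were in 0 of the 22, and in 0.0111% and 0.0481% of all genes. Forms that differ in any letter were not counted. In the Abcb11 sequence below, aggccatTGACCT differs from the inverted repeat in a single letter. A match is a description of the letters, not a binding site. The 250 bases before the start are shown for 3 genes that fell, from uptake, export and the receptor itself, and for Abcc2, the canalicular exporter that did not. Capitals mark AGGTCA, or TGACCT where it lies on the opposite strand.
Abcb11 (chr2:69342617-69342866, minus strand): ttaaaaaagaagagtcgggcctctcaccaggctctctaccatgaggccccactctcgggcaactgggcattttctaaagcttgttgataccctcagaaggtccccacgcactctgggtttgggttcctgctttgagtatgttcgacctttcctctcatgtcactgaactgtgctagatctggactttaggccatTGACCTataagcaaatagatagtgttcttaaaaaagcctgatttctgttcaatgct
Slc10a1 (chr12:80968080-80968329, minus strand): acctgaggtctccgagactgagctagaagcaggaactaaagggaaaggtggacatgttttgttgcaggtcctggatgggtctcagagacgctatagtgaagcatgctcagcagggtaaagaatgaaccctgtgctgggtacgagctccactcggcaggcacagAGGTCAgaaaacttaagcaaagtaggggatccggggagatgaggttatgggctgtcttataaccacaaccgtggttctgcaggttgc
Nr1h4 (chr10:89506659-89506908, minus strand): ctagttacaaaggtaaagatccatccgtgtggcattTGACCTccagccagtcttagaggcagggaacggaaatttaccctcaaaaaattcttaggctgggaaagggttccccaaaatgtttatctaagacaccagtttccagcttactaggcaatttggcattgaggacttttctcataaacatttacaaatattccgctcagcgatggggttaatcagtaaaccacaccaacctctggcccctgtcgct
Abcc2 (chr19:43782058-43782307, plus strand): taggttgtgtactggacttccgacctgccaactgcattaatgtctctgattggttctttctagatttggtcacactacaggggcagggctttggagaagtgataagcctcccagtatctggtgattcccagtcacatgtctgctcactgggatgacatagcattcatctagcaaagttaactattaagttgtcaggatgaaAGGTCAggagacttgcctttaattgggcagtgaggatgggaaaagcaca
In Abcb11 the letters lay from base -56 to -51 before the start, in Slc10a1 from -87 to -82, in Nr1h4 from -214 to -209 and in Abcc2 from -49 to -44. The letters were present both before Abcb11, which fell, and before Abcc2, which did not pass the test.

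Other genes of the pathway, from lists of further enzymes and regulators, were read beside the 32. Of 16 measured further enzymes of bile acid and related acyl-CoA metabolism 11 fell and 1 rose. By comparison, 11.1% of all genes and 38.1% of those with a mean of at least 9 were lower, and the median wildtype level of these enzymes was 11.3. Acot4 and Acot8, peroxisomal acyl-CoA thioesterases, fell 2.01-fold and by 0.58 ± 0.0513 on the log2 scale (adjusted p = 8.43e-05 and 1.85e-07), and Ch25h, the cholesterol 25-hydroxylase, rose by 0.50 ± 0.117 (adjusted p = 0.00506) from a wildtype level of 4.10. The median difference of this list was -0.29. Also lower, and named after their values were seen, were Abcd3 (-0.45 ± 0.0653), the peroxisomal importer of bile acid precursors, and Hsd17b4 (-0.42 ± 0.0587), the multifunctional enzyme that follows Acox2. Cyp2c70, which makes the muricholic acids of mice and was also named after its value was seen, differed by 0.09 ± 0.0625 (adjusted p = 0.367). Of 16 measured regulators 6 fell and 0 rose, led by the receptors LXR-alpha (Nr1h3, -0.51 ± 0.0642, adjusted p = 1.30e-05) and CAR (Nr1i3, -0.46 ± 0.0757, adjusted p = 0.000237) and by Fgfr4, the hepatic receptor of the intestinal hormone FGF15 (-0.34 ± 0.0657, adjusted p = 0.000915). Their median difference was -0.21 and their median wildtype level 8.53. The count of 6 of 16 lies above the 11.1% of all genes that were lower. It is close to the 38.1% of genes with a mean of at least 9, a range that holds only part of this list. No share was taken over genes of the same levels as these regulators. With arrays centred on hepatocyte markers, 7 of these enzymes and 3 of these regulators were lower.

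Of 18 measured genes of canalicular lipid transport and membrane traffic, 2 rose, 2 fell (12.1% and 11.1% of all genes did) and the median difference was 0.02. Abcb1b, a multidrug resistance pump, rose by 0.72 ± 0.0963 (adjusted p = 2.44e-05) without overlap of the groups, against 4.40% of all rows in that direction. Its wildtype level was dim at 4.72, below the median of the table (5.26). Abcg5, a subunit of the sterol exporter, rose by 0.32 ± 0.0882 (adjusted p = 0.0145), while its partner Abcg8, named after its value was seen, differed by -0.09 ± 0.112 (adjusted p = 0.67). Ceacam1, a cell adhesion molecule of the canalicular membrane, fell by 0.44 ± 0.0755 (adjusted p = 0.000311). Among hepatocyte genes of the lobule's zones, of 7 measured periportal genes 5 fell and 1 rose (Hal by -0.82, Pigr by -0.64 and Cyp2f2 by -0.58), and of 10 pericentral genes 2 rose and 1 fell (Gulo by 0.42, Glul by 0.37 and Cyp1a2 by -0.34). For these zone genes too, the shares over all genes were 11.1% lower and 12.1% higher. The median wildtype level of the periportal list and that of the pericentral list lay above 9. Of genes with a mean of at least 9, 38.1% were lower and 12.1% higher. Whether the zone lists differ from genes of like brightness was not tested. The part of zonation or of cell makeup in the differences of the bile acid genes was not tested.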

How the data were processed

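The deposited values are GCRMA output, as the submitters' processing notes name it: probe-level background correction, normalization and summary to 1 value per transcript; version and settings are not given in the sources used here. Values enter as deposited, as log2 intensities, with the log base read from their range of 0.71 to 14.7. Differences of dim genes are less certain. Of 35557 rows, 21789 carried 1 gene symbol and 1621 several; 12147 had no entry in the probe table. Through Entrez identifiers (gene table of GRCm38.p6) 0 symbols changed.

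A linear model was fitted to all rows, unfiltered, with limma 3.58.1 (R 4.3.3) and a moderated, trended variance (two-sided), with Benjamini-Hochberg adjustment over all of them. The fit was tested on simulated data, where 18% of 1.25-fold, 68% of 1.5-fold and 94% of 2-fold changes were recovered. The simulation changed far fewer rows than were called here, which makes its adjusted threshold stricter. Small changes can be missed, so a gene that did not pass may still differ. Differences are transgenic minus wildtype with the standard error of the fit, and the number of arrays limits the precision. The 32 genes, their roles, the lists and the markers were chosen with earlier results of these data known. All 32 genes were named; each other list contributed up to 3 called genes by size of difference, or else the gene with the smallest p; genes named outside this rule are marked as such. Of 81 pathway list genes 67 had a single-symbol row; the other 14 were not analysed here. The alternatives changed the scaling, the filter, the spread model, the weights of arrays, the floor for low values, the rows of a gene, the block and the arrays included. Plots were drawn with matplotlib 3.10.9.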

Additional observations from a re-analysis of the deposited data

Results flagged for a closer look

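In each group of each of the 32 genes, 64 groups in all, the gap of the highest or lowest array to its neighbour was set against the whole range of the group with Dixon's 95% critical value, and 5 groups held an array that stood apart; chance gives about 1 in 20. Wildtype array 1 read 8.42 for Cyp8b1, under a next array at 9.69. Wildtype array 3 read 10.2 for Cyp39a1, above a next array at 9.59. Transgenic array 4 read 9.15 for Acox2, under a next array at 9.57, and without it Acox2 still fell. Transgenic array 1 read 11.1 for Slco1b2, under a next array at 11.5. Wildtype array 7 read 10.3 for Nr0b2, above a next array at 9.34.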

How the results depend on the processing

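Each of the 32 differences was recomputed under 28 alternatives, or 27 for Slc51a and Slc51b, which the filter on dim rows removes. None of the 16 called genes changed sign, and 5 kept their call throughout (Amacr, Acox2, Slc27a5, Slc22a7 and Abcb11). Of the 16 other genes, 7 were called somewhere. The count of 15 lower genes became 6 with arrays centred on hepatocyte markers and lay between 12 and 16 without each array in turn. The count of 1 higher gene became 0 with arrays centred on their medians, 2 with array weights, quantile normalization, centring on hepatocyte markers, rows above the table median or rows with 1 symbol, 4 without transgenic array 1 and wildtype array 9 together (an alternative chosen after the data were seen), and lay between 1 and 2 without each array. Over all rows 2936 were lower and 3785 higher as deposited, 4688 and 2873 after centring on medians, 3829 and 3583 after quantile normalization and 1309 and 4768 after centring on hepatocyte markers. Of 67 pathway list genes 25 were lower, or 15 after centring on hepatocyte markers. In the other direction 7 were higher, or 4 after centring on medians or with only the rows above the table median. After centring on hepatocyte markers, 0 regulators, 1 further enzyme, 3 canalicular genes and 5 other transporters were higher. After centring on medians, 6, 12, 3 and 6 genes of the same lists, in that order, were lower. As deposited, 11.1% of all genes were lower and 12.1% higher. Of genes with a mean of at least 9 the shares were 38.1% and 12.1%, and the median wildtype level of these list genes was 9.12. Genes near 0 turned sign without a call: Cyp8b1 to -0.0192 after centring on medians and, over single omitted arrays, to a range of -0.1696 to 0.1262; Scp2 to 0.0014 and Slc51b to 0.0266 after centring on hepatocyte markers; and Slc51b to 0.0145 with the replicate block and, over single omitted arrays, to a range of -0.1543 to 0.031. Relations that turned sign were Nr0b2 with Abcb11 in wildtype (-0.0234 after quantile normalization), Nr0b2 with Slc10a1 in wildtype (-0.226) and Nr0b2 with Cyp7a1 in transgenic arrays (0.251) without the 2 arrays farthest from the median, and Nr0b2 with Slc10a1 in transgenic arrays (0.223 after centring on hepatocyte markers). The cause of these changes was not tested.

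Replicate numbers 1 to 7 occur in both groups. Over all rows, the deviations of same-numbered arrays had correlations between -0.0186 and 0.0859. The labels do not say what a shared number means. A shared effect on few rows would not show in these correlations, so a common litter, day or batch was not tested. With the number as a block over 14 arrays, 13 of the 32 genes were lower and 1 higher, against 13 called in all over the same 14 arrays without the block, and 2234 rows were lower and 3488 higher.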

Other observations

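Transporters of other organic ions, which the bile acid genes do not include, moved in both directions. Of 17 measured genes 6 fell and 4 rose (11.1% and 12.1% of all genes did), with a median difference of -0.04. Slc22a5, the carnitine transporter, fell by 0.73 ± 0.106 (limma adjusted p = 6.14e-05) and Slc17a2, a phosphate and organic anion transporter of the liver, by 0.65 ± 0.103 (limma adjusted p = 0.000147), both without overlap between groups. Of all rows 2.38% lay wholly below, and of genes with a mean of at least 9, 17.3% did. The wildtype means were 7.28 for Slc22a5 and 10.75 for Slc17a2. Slco2a1, the prostaglandin transporter, fell by 0.42 ± 0.0916 (limma adjusted p = 0.00266). Of the multidrug resistance proteins outside the 32 genes, Abcc1 and Abcc5 rose by 0.41 ± 0.0847 and 0.38 ± 0.0807 (limma adjusted p = 0.00197 and 0.00205), named here after their values were seen. Both were dim, with wildtype levels of 4.96 and 5.31.

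The arrays at the ends of the groups recurred across the 32 genes. Transgenic array 1 was the lowest transgenic array in 16 of them and array 7 the highest in 12. In the wildtype group array 3 was the lowest in 8 and array 9 the highest in 10. The median SD over the 32 genes was 0.176 in the transgenic and 0.146 in the wildtype group, and 3 genes (Cyp7a1, Cyp8b1 and Nr0b2) had a wildtype SD above 0.5.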
